A study of Rattus norvegicus with 6 samples.

Results

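The report concerns a stretch of rat chromosome 9 (chr9) on which ATAC-seq peaks were higher in Med14 S983A cells than in WT cells. It holds every merged peak of chr9 that starts between positions 79471184 and 111212494 of the rn6 build, a span of 31.7 Mb. There were 2767 such peaks among 220490 in the whole series, or 1.25%, and 28.9% of the 9562 peaks of chr9. These bounds were chosen on the measured difference between the genotypes in all 3 treatments, so the size of that difference inside them is given as a description and supports nothing further. In 1000 members the peak was called in all 6 libraries, and the other 1767 were missing from the peak list of at least 1 library.

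The cells were INS-1, a line derived from a rat insulinoma that stands in for pancreatic beta cells. WT cells were compared with cells carrying Med14 S983A, in which the serine at that position of the Mediator subunit Med14 is replaced by alanine. Both genotypes were put into serum-free medium and were left without a stimulus (CON), treated for 1 h with 10 nM Exendin-4 (Ex-4), an agonist of the GLP-1 receptor, or treated for 1 h with 10 µM forskolin (FSK), which activates adenylyl cyclase directly. There was 1 library for each of the 6 conditions, so no replicate error can be given, no difference was tested and the intervals below cover counting error only. The mutation was introduced with CRISPR and a repair template that also held silent changes, and the mutant lines were grown from single sorted cells. The sources used here do not say which mutant line gave the 3 Med14 S983A libraries, and a difference that belongs to 1 line cannot be told apart from one that follows the mutation.

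ATAC-seq reads come from DNA that a transposase could enter, and they pile up into peaks over promoters and enhancers that are not covered by nucleosomes. Mediator is the complex that links transcription factors at enhancers to RNA polymerase II, and Med14 is the subunit that holds its parts together. GLP-1 receptor agonists and FSK both raise cAMP in beta cells, which activates protein kinase A and the transcription factor CREB. The values are FPKM, reads per kilobase of peak, scaled to the reads in the library's own peaks. FPKM counts reads, so the number of copies of a region in the cells and the accessibility of each copy are not separated in these values.

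Read numbers were recovered from the steps between low FPKM values, and the listed peaks held from 132970416 reads in Med14 S983A CON to 247604091 reads in WT FSK. All low values lay within 0.15 of a whole number of reads. A member called in all 6 libraries held a median of 516 reads in WT CON and 882 reads in Med14 S983A FSK, the lowest and highest of the 6 libraries, and the counting error at those medians was 4.40% and 3.37%. A peak absent from a library's own list is listed at 0 there, apart from 116 to 141 merged peaks per library that have a value without a call, 1 or 2 of them members. For this reason the members called in all 6 libraries are described first and the others separately.

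The stretch took a larger share of the reads in all 3 Med14 S983A libraries than in any WT library. In WT it held 0.749% of the reads in peaks without a stimulus, 0.776% with Ex-4 and 0.835% with FSK. In Med14 S983A it held 1.40% without a stimulus, 1.44% with Ex-4 and 1.52% with FSK. The widest exact 95% binomial interval of these shares reached 0.0020 percentage points to either side. The genotypes did not overlap, and the ratio of Med14 S983A to WT was 1.87 in CON, 1.86 in Ex-4 and 1.82 in FSK. Over the peaks on the rest of chr9 the same ratio was 1.09, 1.08 and 1.05. There the genotypes did not overlap either, with shares from 2.69% to 2.78% in WT and from 2.82% to 3.04% in Med14 S983A. The rest of chr9, here and below, includes raised parts on both sides of the stretch, which are described further on.

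**Figure D1:**
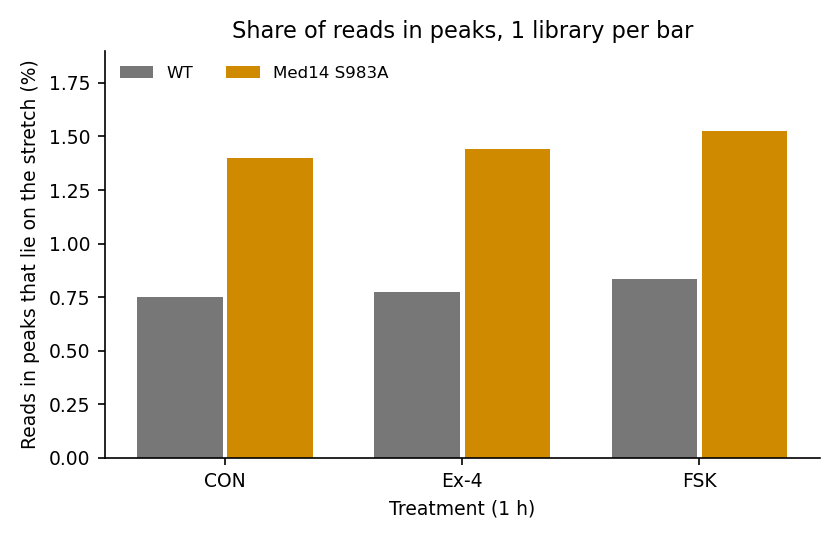
Percent of each library's reads in peaks that lie on the stretch, 1 bar per library, by treatment (x axis) and genotype (colour). The WT bars lie between 0.749% and 0.835% and the Med14 S983A bars between 1.40% and 1.52%, with no overlap.

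In WT cells the members called in all 6 libraries were lower than peaks of the same kind elsewhere, and in Med14 S983A cells they were higher. Their median level in WT was 6.34 FPKM without a stimulus, 6.55 with Ex-4 and 6.46 with FSK. The Med14 S983A medians were 10.3, 10.5 and 9.92 FPKM in the same order. On the rest of chr9 the medians were 7.95 FPKM in WT CON and 8.05 in Med14 S983A CON. On the other chromosomes the medians were 8.84 FPKM in WT CON and 8.0 in Med14 S983A CON.

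Differences were taken peak by peak as log2(FPKM + 0.5), Med14 S983A minus WT, which understates the change of low peaks. The median over the 1000 members was 0.89 in CON with quartiles of 0.38 and 1.12, or 1.85-fold. It was 0.87 in Ex-4 with quartiles of 0.41 and 1.10, and 0.83 in FSK with quartiles of 0.30 and 1.07. The medians of the 3 treatments thus lay close together. Over the 2489 peaks of the rest of chr9 with a mean of 1 FPKM or more the medians were 0.18, 0.17 and 0.14, and over the 82976 such peaks of the other chromosomes 0.043, 0.045 and 0.030. Among the 2489 were 144 peaks just before the stretch and 289 after it, with medians in CON of 0.83 and 0.86. The other 2056 had a median in CON of 0.11. Medians of the 20 other chromosomes in CON ran from -0.17 on chromosome 12 to 0.21 on chromosome 5.

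**Figure D2:**
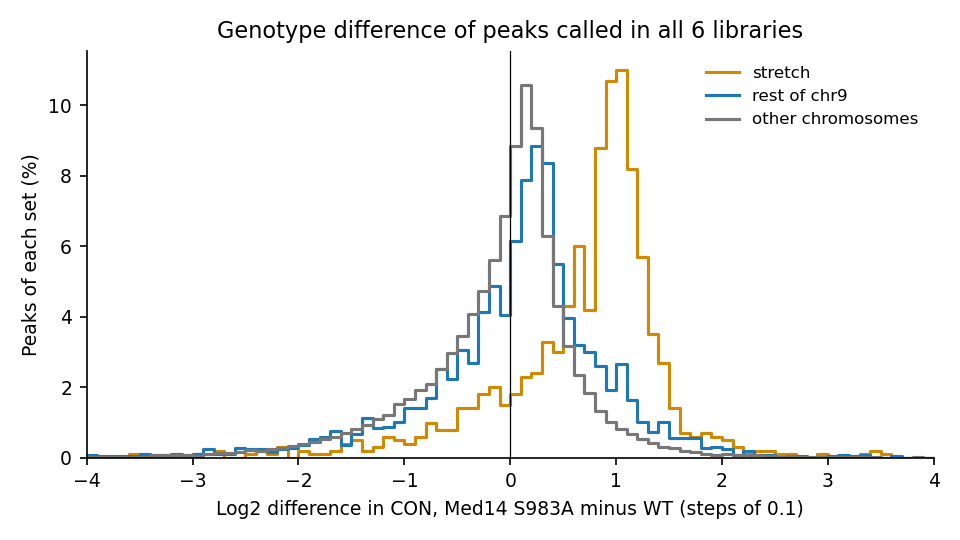
Log2 difference of Med14 S983A minus WT in CON (x axis, steps of 0.1) against the percent of peaks of each set (y axis), for peaks called in all 6 libraries. The stretch has its median at 0.89, the rest of chr9 at 0.18 and the other chromosomes at 0.043.

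In CON Med14 S983A was at least 2-fold higher in 372 of the 1000 members (37.2%), where 4.9% of all peaks called in all 6 libraries passed that limit. In Ex-4 there were 355 (35.5%) against 4.98% of all such peaks, and in FSK 324 (32.4%) against 4.07%. At least 2-fold lower were 43 members in CON (4.3%, all peaks 10.5%), 38 in Ex-4 (3.8%, all peaks 9.6%) and 47 in FSK (4.7%, all peaks 11.4%). Since the bounds were chosen on this contrast, these shares only restate the choice. Members higher in Med14 S983A made up 89.6%, 90.3% and 87.3% of those past 2-fold in CON, Ex-4 and FSK, and 79.4%, 80.4% and 76.0% when each difference was centred on the rest of chr9. The median lay just under 2-fold, and 628 members (62.8%) lay between 1.5-fold and 3-fold higher in CON. That share also restates the choice and was not taken over other peaks. The upper quartile in CON was 1.12 on the stretch, 0.50 on the rest of chr9 and 0.30 on the other chromosomes.

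Most members carried the difference in every treatment. In 798 members the value was above 0 in CON, Ex-4 and FSK, in 125 it was below 0 in all 3, and in 77 the sign differed between treatments. The share above 0 in all 3 was 79.8% on the stretch, 51.3% on the rest of chr9 and 42.6% on the other chromosomes. In all 3 treatments Med14 S983A was at least 2-fold higher in 217 members (21.7%), against 5.91% of the rest of chr9 and 2.57% of the other chromosomes, and at least 2-fold lower in 28 (2.8%), against 8.48% and 7.74%. As the bounds were chosen on the difference in all 3 treatments, these shares on the stretch restate the choice. The range of a member's 3 differences had a median of 0.24, against 0.26 on the rest of chr9 and 0.24 on the other chromosomes. Across the 1000 members, all measured in the same libraries, the difference in CON had a Pearson correlation of 0.95 with that in Ex-4 and 0.92 with that in FSK. These correlations were 0.96 and 0.93 on the rest of chr9 and 0.95 and 0.91 on the other chromosomes, so they were not particular to the stretch.

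The highest peaks of the stretch were close to 2-fold higher in Med14 S983A. The peak with the highest mean, chr9:82513865-82515041, had 56.2, 56.1 and 50.5 FPKM in WT CON, Ex-4 and FSK against 111.2, 105.2 and 103.9 in Med14 S983A. Its exact 95% Poisson interval in CON was 55.1 to 57.3 FPKM in WT and 109.6 to 112.9 in Med14 S983A. The next, chr9:81672163-81672556, had 42.2, 43.3 and 39.9 FPKM in WT against 79.5, 77.3 and 79.2 in Med14 S983A. The 5 highest peaks were each higher in Med14 S983A in every treatment, which restates the choice of the bounds. The peak chr9:98597111-98597929 had 38.8, 40.5 and 39.2 FPKM in WT against 78.5, 76.3 and 76.9 in Med14 S983A. The peak chr9:100779128-100780519 had 41.1, 41.9 and 37.4 FPKM in WT against 77.6, 74.5 and 73.1 in Med14 S983A. The last of these, chr9:89041558-89042264, had 35.6, 44.5 and 48.5 FPKM in WT against 58.1, 73.0 and 79.3 in Med14 S983A. It was the one of the 5 that was higher with both stimuli in both genotypes, and its genotype ratio stayed between 1.63 and 1.64. The others of the 5 moved little with either stimulus.

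Under each ranking by level or length the highest set had the narrowest spread of differences. When they were divided into 5 sets of 200 by the mean of the 3 WT libraries, the median difference in CON was 0.99, 0.74, 0.77, 0.89 and 0.95 from the lowest to the highest set. The distance between the quartiles in these sets was 0.70, 0.95, 0.83, 0.86 and 0.39. In sets by the mean of all 6 libraries, added after the data were seen, it was 0.51, 0.75, 0.80, 0.97 and 1.01. The distance between the quartiles then was 1.16 in the lowest set and 0.30 in the highest, and on the other chromosomes it was 0.89 and 0.33. The place of the lowest set thus depended on which libraries ranked the peaks. In sets by length the medians were 0.79, 0.71, 0.86, 0.83 and 1.03, and the widest peaks, from 917 to 3028 bp, had quartiles of 0.89 and 1.20.

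The members that differed most from the common value were named by a rule. The largest difference among those at least 2-fold higher in all 3 treatments was at chr9:96840915-96842158, with 0.22, 0.82 and 1.28 FPKM in WT CON, Ex-4 and FSK against 14.4, 23.9 and 32.6 in Med14 S983A. Its exact 95% Poisson interval in CON reached from 0.16 to 0.30 FPKM in WT and from 13.8 to 14.9 in Med14 S983A. The peak was nearly closed in WT CON and was higher with both stimuli in both genotypes. A second such peak, chr9:96874206-96874872, had 0.93, 0.76 and 0.54 FPKM in WT against 15.5, 16.1 and 13.1 in Med14 S983A. Another, chr9:96907658-96908243, had 4.92, 4.67 and 3.53 FPKM in WT against 33.2, 36.6 and 31.5 in Med14 S983A. These 3 peaks and chr9:97583711-97585032 lie in the same run of 50 peaks along the chromosome. The last of them had 2.25, 2.91 and 4.16 FPKM in WT against 28.2, 29.4 and 33.1 in Med14 S983A. The peak chr9:82246426-82247004 had 0.62, 1.00 and 0.52 FPKM in WT against 12.6, 13.5 and 9.87 in Med14 S983A.

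A small number of members went the other way. The 28 members at least 2-fold lower in all 3 treatments had a median of 7.66 FPKM in WT CON and 1.67 in Med14 S983A CON. The strongest was chr9:110756937-110757807, with 16.7, 20.2 and 19.2 FPKM in WT against 0.94, 1.20 and 1.64 in Med14 S983A. The peak chr9:89894452-89894838 had 16.3, 17.1 and 20.6 FPKM in WT against 1.77, 1.92 and 2.31 in Med14 S983A. The genotypes were far apart at both peaks, in the direction opposite to most members. The neighbouring peaks chr9:84044162-84044793 and chr9:84045262-84045855 had 33.7 and 20.9 FPKM in WT CON and 4.53 and 2.74 in Med14 S983A CON. The peak chr9:105959753-105960355 had 27.9, 13.9 and 3.52 FPKM in WT against 3.13, 1.51 and 1.11 in Med14 S983A, and it was lower with both stimuli in both genotypes. On the log2(FPKM + 0.5) scale its genotype difference was -2.97 in CON, -2.84 in Ex-4 and -1.32 in FSK.

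The difference was spread along the whole stretch and did not end at its bounds. In the 20 runs of 50 members along the chromosome the median in CON lay between 0.60 and 1.08, in Ex-4 between 0.43 and 1.01 and in FSK between 0.32 and 1.04. The run from 98064682 to 99374078 had the lowest value in all 3 treatments. In the 15 full windows of 2 Mb the median lay between 0.31 and 1.01 in CON, between 0.32 and 1.00 in Ex-4 and between 0.15 and 1.00 in FSK, and the lowest in each was the sparse window of 12 peaks from 107687026 to 109239806.

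A fit of 2 levels to all chr9 peaks called in all 6 libraries placed the step before the stretch. The first peak on the raised side started at 72936611 in CON, 6.53 Mb before the first member, and at 73089478 in Ex-4 and FSK, 6.38 Mb before it. The 2056 peaks before the step in CON had medians of 0.11, 0.12 and 0.085 in CON, Ex-4 and FSK. The 144 peaks between the step and the stretch had medians of 0.83, 0.83 and 0.77. Beyond the last bound the 289 peaks up to 122081899, the end of the last chr9 peak, had medians of 0.86, 0.85 and 0.67. The raised level thus reached past both bounds, and against the part of chr9 before the step, a comparison added after the data were seen, the stretch was higher by 0.77, 0.75 and 0.74 in place of 0.71, 0.70 and 0.68 against all of the rest of chr9. The profile also had gaps outside the bounds. The 37 peaks in the last 2 Mb before the stretch had medians of 0.42, 0.20 and 0.084, and the 33 peaks from 115525997 to 117404853 had medians of 0.0028, 0.16 and -0.12.

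**Figure D3:**
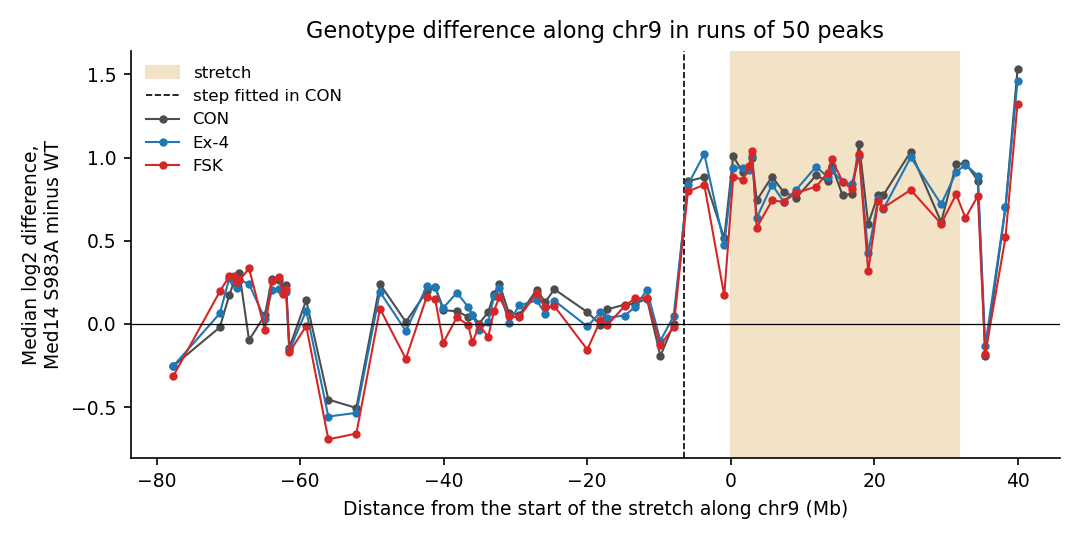
Median log2 difference of Med14 S983A minus WT (y axis) in consecutive runs of 50 chr9 peaks called in all 6 libraries, against distance from the start of the stretch in Mb (x axis), with a line for each treatment. The 20 runs inside the shaded stretch lie between 0.32 and 1.08, and the raised level starts at the dashed step 6.53 Mb before it and goes on past its end, apart from a drop in runs near its start and beyond its end.

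The 3 peaks next to each bound on either side varied widely. Just inside the first bound the 3 members starting at 79471184, 79476094 and 79476788 had differences in CON of 1.12, 0.61 and -0.67. Just outside it the peaks starting at 79369432, 79384533 and 79458540 had 0.89, -1.27 and 0.69. Just inside the last bound the members starting at 111185877, 111190855 and 111211575 had 0.84, 1.13 and 0.67. Just outside it the peaks starting at 111220120, 111327026 and 111366039 had 1.07, 1.05 and -0.057. Over wider windows the medians rose from 0.42, 0.20 and 0.084 in the last 2 Mb before the first bound to 0.98, 0.92 and 0.80 in the first 2 Mb inside it. The window before these, from 75502311 to 77435566, already had 0.86, 0.97 and 0.83, so the bound follows a local dip.

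The peak lists of the libraries showed the same split as the levels. They come from the same reads, so this too restates the choice of the bounds. Of the 2767 members, 1269 (45.9%) were called in WT CON, 1309 (47.3%) in WT Ex-4 and 1718 (62.1%) in WT FSK. In Med14 S983A 1594 (57.6%) were called in CON, 1779 (64.3%) in Ex-4 and 2177 (78.7%) in FSK. On the rest of chr9 the shares in WT were 58.2%, 58.9% and 72.6% and those in Med14 S983A 54.9%, 58.9% and 63.1%. The stretch thus had fewer of its peaks called than the rest of chr9 in each WT library and more in each Med14 S983A library, although WT FSK was the deepest library.

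**Figure D4:**
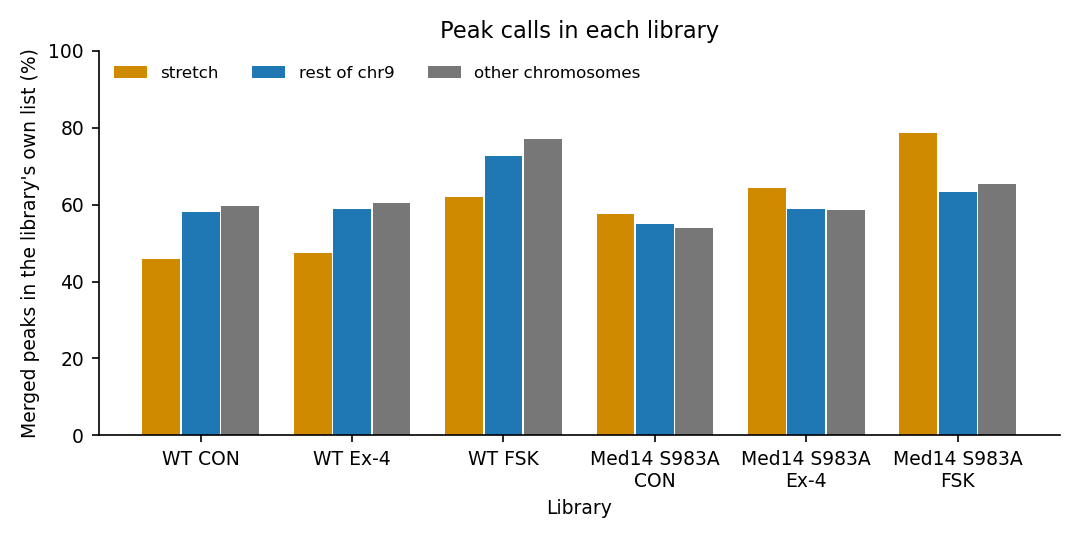
Percent of merged peaks present in each library's own peak list (y axis), 1 bar per library and set of peaks. The bars of the stretch are the lowest of the 3 sets in each WT library, from 45.9% to 62.1%, and the highest in each Med14 S983A library, from 57.6% to 78.7%.

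There were 1185 members (42.8%) in more Med14 S983A lists than WT lists and 340 (12.3%) in more WT lists than Med14 S983A lists. On the rest of chr9 these shares were 24.9% and 30.0%, and on the other chromosomes 19.7% and 30.6%. There were 171 members (6.18%) in all 3 Med14 S983A lists and in no WT list, against 3.08% of the rest of chr9, and 75 (2.71%) in all 3 WT lists and in no Med14 S983A list, against 7.21%. On the other chromosomes these shares were 2.19% and 5.50%. In the Med14 S983A FSK list alone there were 370 members (13.4%), against 5.62% of the rest of chr9. In the WT FSK list alone there were 99 (3.58%), against 8.61%. On the other chromosomes 4.82% were in the Med14 S983A FSK list alone and 9.77% in the WT FSK list alone.

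Some of the members found in 1 genotype's lists were high peaks. The peak chr9:80155793-80156572 was listed at 0 in all 3 WT libraries and had 35.3, 33.7 and 30.3 FPKM in Med14 S983A CON, Ex-4 and FSK. The peak chr9:82121860-82122017 was listed at 0 in WT and had 26.4, 25.2 and 20.5 FPKM in Med14 S983A. The peak chr9:97298513-97299165 was listed at 0 in WT and had 24.5, 25.4 and 22.2 FPKM in Med14 S983A. These were the 3 highest of the 171, whose median of the Med14 S983A mean was 3.15 FPKM. In the other direction, chr9:110989965-110990585 had 33.9, 34.7 and 28.9 FPKM in WT and was listed at 0 in Med14 S983A. The peak chr9:98042090-98042514 had 15.9, 16.1 and 13.0 FPKM in WT, and chr9:92506673-92507092 had 10.2, 14.6 and 19.5, and both were listed at 0 in Med14 S983A. A value of 0 here means only that the library's list did not hold the peak, so no fold is given.

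Of the 1767 members not called in all 6 libraries, 798 reached a mean of 1 FPKM across libraries. At least 2-fold higher in Med14 S983A were 338 in CON (42.4%, all such peaks 20.4%), 411 in Ex-4 (51.5%, all such peaks 25.3%) and 385 in FSK (48.2%, all such peaks 15.9%). At least 2-fold lower were 135 in CON (16.9%, all such peaks 37.1%), 125 in Ex-4 (15.7%, all such peaks 34.7%) and 146 in FSK (18.3%, all such peaks 42%). Most of these rest on a 0. In CON WT was at 0 in 322 of the 338 higher members, and in FSK in 245 of the 385. The filter takes the mean of all 6 libraries, so a member could pass it through the values of 1 genotype alone. Without the filter 523, 675 and 859 of the 1767 were higher in CON, Ex-4 and FSK, and 195, 181 and 265 were lower. The bounds were chosen on this contrast, so these counts too restate the choice. The 377 members with a value in both FSK libraries had a median difference of 0.77. It was 0.50 for the 139 with a value in both Ex-4 libraries and 0.15 for the 76 with one in both CON libraries. The members called in all 6 libraries had 0.83, 0.87 and 0.89 in the same order. Members absent from the list of 1 genotype are left out of these medians.

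The members resembled other peaks in size. Their median length was 277 bp, against 281 bp on the rest of chr9 and 284 bp on the other chromosomes. Members called in all 6 libraries had a median of 585.5 bp and the others of 187 bp. There were 87.2 merged peaks per Mb on the stretch, 75.2 on the rest of chr9 and 79.5 on the other chromosomes, and peaks called in all 6 libraries numbered 31.5, 27.6 and 31.3 per Mb.

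The response to the stimuli was not used to choose the stretch. A peak was called opened or closed when it was at least 2-fold higher or lower with the stimulus than in CON of the same genotype. Both stimuli are set against the same CON library of a genotype, so their values are not independent. With FSK 78 members opened in WT (7.8%, all peaks 5.94%) and 54 in Med14 S983A (5.4%, all peaks 4.56%). Closed with FSK were 33 in WT (3.3%, all peaks 3.65%) and 32 in Med14 S983A (3.2%, all peaks 4.28%). These shares lay near those of all peaks, somewhat above them for opened members. With Ex-4 11 members opened in WT (1.1%, all peaks 0.448%) and 10 in Med14 S983A (1%, all peaks 0.634%). With Ex-4 0 members closed in either genotype, where 0.0625% of all peaks closed in WT and 0.0497% in Med14 S983A.

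The median change with FSK was -0.044 in WT and -0.092 in Med14 S983A over the 1000 members, against -0.17 and -0.21 on the rest of chr9 and -0.14 and -0.12 on the other chromosomes. When each library was centred on its own median these medians became 0.012 and 0.016, so their sign depends on the scaling. Quantile normalization raised the number of members closed with FSK to 169 in WT and 71 in Med14 S983A. The median change with Ex-4 was 0.0096 in WT and -0.0062 in Med14 S983A.

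The FSK responses of the genotypes matched about as closely on the stretch as elsewhere. FSK opened 47 members in both, which is 60.3% of those opened in WT and 87.0% of those opened in Med14 S983A, where the shares were 46.8% and 76.6% on the rest of chr9 and 61.5% and 79.6% on the other chromosomes. It closed 18 members in both, which is 54.5% of those closed in WT and 56.2% of those closed in Med14 S983A. For closed peaks the shares were 48.4% and 37.8% on the rest of chr9 and 56.5% and 48.2% on the other chromosomes. Peaks opened in one genotype and closed in the other numbered 0 on the stretch, 0 on the rest of chr9 and 2 elsewhere. Across the 1000 members the FSK changes of the 2 genotypes had a Pearson correlation of 0.86, with 1 library behind each value, against 0.83 on the rest of chr9 and 0.85 on the other chromosomes.

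**Figure D5:**
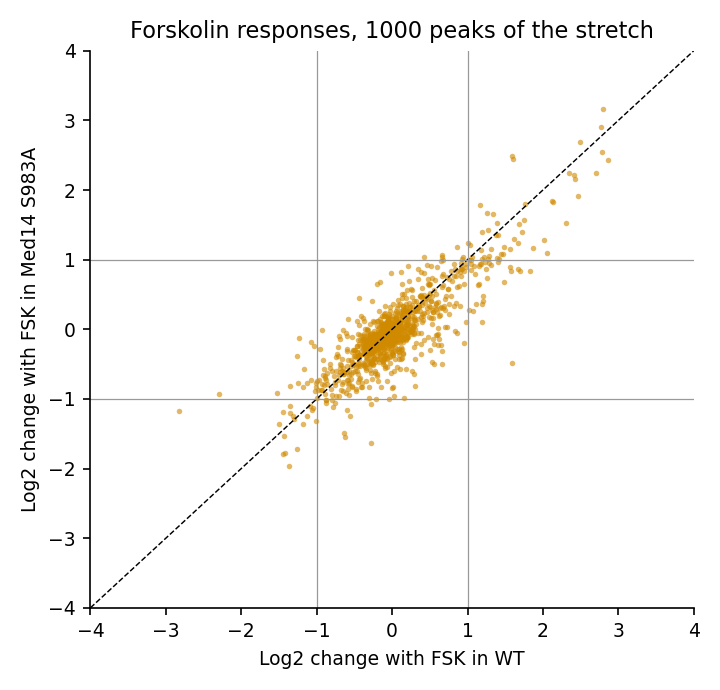
Log2 change with FSK in WT (x axis) against that in Med14 S983A (y axis) for the 1000 members called in all 6 libraries, 1 point per peak, with the diagonal dashed and grey lines at 2-fold. No point lies in the corners where one genotype opened and the other closed, and 47 points lie past 2-fold in both genotypes at the upper right.

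On the mean of both genotypes FSK opened 65 members (6.5%), against 3.70% of the rest of chr9 and 4.99% of the other chromosomes. The median of these 65 changes was 1.47 in WT against 1.18 in Med14 S983A, and 50 of them (76.9%) changed less in Med14 S983A. That share was 69.6% on the rest of chr9 and 67.5% on the other chromosomes. The 65 members differed between the genotypes in CON by a median of 0.89, the same as all members called in all 6 libraries.

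The member with the largest FSK change, chr9:111066788-111067266, had 0.86, 1.05 and 8.95 FPKM in WT CON, Ex-4 and FSK against 0.92, 3.30 and 12.2 in Med14 S983A. The genotypes were at the same level in CON, and Med14 S983A was higher with both stimuli. The member chr9:82931093-82931675 had 0.75, 1.83 and 8.06 FPKM in WT against 0.93, 4.04 and 10.3 in Med14 S983A. The member chr9:93312637-93313121 had 1.21, 4.17 and 11.3 FPKM in WT against 0.81, 3.08 and 7.18 in Med14 S983A. This one was lower in Med14 S983A in every treatment, and it had the largest Ex-4 change of all members when both genotypes were averaged. The member chr9:88602272-88602882 had 1.72, 2.90 and 15.7 FPKM in WT against 4.48, 9.34 and 26.3 in Med14 S983A. The wide member chr9:82442307-82444711, of 2404 bp, had 4.27, 9.17 and 26.3 FPKM in WT against 9.45, 24.3 and 63.6 in Med14 S983A. Its level in Med14 S983A was more than 2-fold that of WT in each treatment. The member chr9:97733892-97735081, among the 3 with the largest Ex-4 change, had 5.0, 13.6 and 28.7 FPKM in WT against 9.76, 24.7 and 47.2 in Med14 S983A.

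Closing with FSK was largest at chr9:105959753-105960355, described above, which changed by -2.82 in WT and -1.17 in Med14 S983A on the log2 scale. The member chr9:85206597-85207294 had 23.6, 20.1 and 8.84 FPKM in WT against 19.5, 13.8 and 4.64 in Med14 S983A. The member chr9:83053664-83054370 had 5.56, 3.27 and 1.73 FPKM in WT against 6.76, 5.22 and 1.60 in Med14 S983A. In all 3 of these members the value fell in the order CON, Ex-4, FSK in both genotypes, and in none was Med14 S983A 2-fold higher.

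Of the 65 members opened by FSK, 31 (47.7%) had another of the 65 within 50 kb, in 12 groups. Among peaks opened in the same way that share was 28.3% on the rest of chr9 and 35.2% on the other chromosomes, and it depends on how densely peaks and opened peaks lie. The largest group held 5 members between 111028100 and 111116576, near the end of the stretch, whose FSK change ran from 1.27 to 2.80 in WT and from 0.74 to 3.17 in Med14 S983A. A group of 4 lay between 97565452 and 97661698, with FSK changes from 1.03 to 2.46 in WT and from 0.68 to 1.91 in Med14 S983A. The genotype difference in CON within that group ran from -2.17 to 2.02, so neighbours that opened together stood at opposite ends of the genotype contrast.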

How the data were processed

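ATAC-seq of both genotypes in CON, Ex-4 and FSK was analysed from 1 table of merged peaks. According to the methods and the submitters' processing notes, the authors used Trim Galore for trimming, BWA for alignment against rn6, SAMtools to drop mitochondrial, duplicate and low-quality reads, and MACS2 for peaks. The file header names HOMER for the deposited FPKM values. The methods describe fragments shifted with ATACseqQC ahead of footprinting, but do not tie the FPKM to them. Each library's deposited FPKM sum nearly to the full scale over its own called peaks, so they are relative to reads in those peaks. Peak lengths and coordinates are those of the deposited table.

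Depth was recovered from the steps of FPKM times length. Peaks were kept at a mean of at least 1 FPKM, and differences were taken as log2(FPKM + 0.5) on the authors' scaling. A difference of 2-fold was the size rule. Intervals are exact 95% binomial or Poisson intervals of counting error. The step on chr9 was the split with the least absolute deviation around 2 medians. The 3 mitochondrial peaks were left out of peak comparisons. Scripts ran in Python 3.11.15 with scipy 1.17.1, matplotlib 3.10.9, pandas 2.3.3 and numpy 2.4.6 and were tested on simulated data.

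The members, lists and rules were chosen with earlier results of these data known. Named peaks are the 5 with the highest mean FPKM, the 5 with the largest and the 5 with the smallest genotype difference among those at least 2-fold different in the same direction in all 3 treatments, ranked by the median of the 3, the 5 with the largest and the 3 with the smallest FSK change and the 3 with the largest Ex-4 change, averaged over genotypes, the 3 highest in only 1 genotype's lists, and the 3 next to each bound. The comparison with chr9 before the step and the ranking by the mean of 6 libraries were added after the data were seen. Settings tried were the pseudocount, the filter on low values, the scaling, the fold limit and the bounds. Sequence, genes, GC content and motifs of the peaks were not analysed here, because the reference tables at hand are of another build.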

Additional observations from a re-analysis of the deposited data

How the results depend on the processing

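Every condition is a single library, so there are no replicates to pair or to leave out. A fit of the genotype with treatment as a block could be made but was not run, because the bounds were chosen on the genotype difference in all 3 treatments. Of 285 values recomputed under another setting, 182 stayed within set limits. The limits were the order-statistic interval over peaks for medians, a factor of 1.5 for counts and a small fixed tolerance for read shares. The order-statistic interval takes peaks as its unit and does not measure the variation between libraries. The genotype difference of the members called in all 6 libraries kept its sign under every scaling, pseudocount, filter and bound tried, from 0.68 to 1.02. Its medians in CON, Ex-4 and FSK were 0.92, 0.91 and 0.87 with a pseudocount of 0.1, and 0.82, 0.83 and 0.77 with a pseudocount of 1. With these pseudocounts the excess over the rest of chr9 in CON was 0.73 and 0.65, and in FSK with a pseudocount of 1 it was 0.64. The members closed with Ex-4 numbered 3 in WT and 2 in Med14 S983A with a pseudocount of 0.1, and those opened in WT 6 with a pseudocount of 1. Centring each library shifted the median of all peaks by 0.12, 0.11 and 0.17 and gave 1.01, 0.97 and 1.00 with 500 members higher in FSK, and it turned the median FSK changes to 0.012 in WT and 0.016 in Med14 S983A. Quantile normalization gave 0.94, 0.91 and 1.02, with 24 members lower in CON and 524 higher in FSK. It also gave median FSK changes of -0.22 in WT and -0.12 in Med14 S983A, with 169 and 71 members closed, 1 member closed with Ex-4 in WT and 4 opened with Ex-4 in Med14 S983A. Centred on the rest of chr9 the medians were 0.71, 0.70 and 0.68, with 197, 197 and 174 members higher. The cause of these moves was not tested.

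At a limit of 1.5-fold 678, 681 and 654 members were higher and 72, 65 and 84 lower in CON, Ex-4 and FSK, and at 4-fold 21, 16 and 13 were higher and 12, 8 and 10 lower. With FSK 147 opened and 105 closed in WT and 125 opened and 125 closed in Med14 S983A at 1.5-fold, and 15 opened and 2 closed in WT and 11 opened and 0 closed in Med14 S983A at 4-fold. With Ex-4 42 opened and 12 closed in WT and 48 opened and 3 closed in Med14 S983A at 1.5-fold, and 0 opened in either genotype at 4-fold. Of the members not called in all 6 libraries, 523, 675 and 859 were higher and in FSK 265 lower without a filter, 101, 114 and 93 were higher and 36, 35 and 37 lower at a mean of at least 3 FPKM, and 246 were higher in FSK at 4-fold. Their median differences were 0, 1.33 and 0.92, where the 0 comes from peaks absent from both CON lists. Over all members past the filter the median in CON was 0.82. Against chr9 before the step the excess was 0.77, 0.75 and 0.74. The ratio of read shares was 1.84 in FSK with the bounds moved inward by 2 Mb, 1.80, 1.79 and 1.74 over peaks called in all 6 libraries, and 1.49, 1.49 and 1.48 among reads on chr9 alone. Counting error was small at the median member called in all 6 libraries, at most 4.40%. How far peak calls and values of 0 depend on depth was not tested. The variation between libraries of 1 condition is unknown and limits every comparison.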
